A study of Homo sapiens with 6 samples.

Results

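The 10 genes described here encode the core machinery that fuses and divides mitochondria: the fusion GTPases MFN1, MFN2 and OPA1, the fission GTPase DNM1L (DRP1) with its outer membrane partners FIS1, MFF, MIEF1 and MIEF2, and the proteases OMA1 and YME1L1, which cut OPA1. The members were the 44 probe sets whose only gene symbol in the platform annotation is one of these names, out of 54613 probe sets tested, and all 10 genes had at least 1. RNA came from MDA-MB-231, an established breast cancer line that lacks oestrogen, progesterone and HER2 receptors and invades readily. In 3 arrays the cells carried a stable pLKO.1 short hairpin against ATAD3A (shATAD3A), and in 3 arrays the same vector with a hairpin against GFP (shGFP, the control). ATAD3A is an ATPase of the inner mitochondrial membrane tied to cristae and mitochondrial DNA nucleoids, and the comparison asks how transcript levels differ without its full expression. Cells of both groups had been infected with lentivirus, kept in 1.0 µg/ml puromycin for 2 weeks and taken at passage 2. The labels do not say whether each line was a pool or 1 clone, whether more than 1 ATAD3A hairpin was used, or whether replicates were separate cultures. The p-values therefore speak only to the spread among the 6 arrays, part or all of which may be technical, and precision is limited by their number.

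Mitochondria form a network that is remodelled by joining and splitting. MFN1 and MFN2 sit in the outer membrane and tether neighbouring organelles, while OPA1 joins the inner membranes and shapes the cristae. For division, DNM1L is drawn from the cytosol by receptors on the outer membrane and constricts the organelle. OMA1 is switched on by membrane stress and cuts the long, fusion-active forms of OPA1, whereas YME1L1 cuts OPA1 at another site as part of normal upkeep. Much of this system is run by protein cleavage, phosphorylation and recruitment, none of which an expression array measures.

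All values are log2 expression values as deposited, changes are shATAD3A minus shGFP, and each error is given as the SD of 3 arrays or the SE from limma. A gene or probe set is called changed at a Benjamini-Hochberg adjusted p of 0.05 over all 54613 probe sets. The deposited values formed a low mode, which holds little signal, and a broad upper range. A boundary between them was set at 4.87 once the values had been seen, and 23 of the 44 member probe sets lay above it. Each gene is read mainly from its brightest probe set, the one with the highest mean over the 6 arrays.

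The targeted gene was lower in the knockdown arrays. ATAD3A read 7.41, 7.03 and 7.39 in shATAD3A cells, against 7.73, 7.78 and 7.80 in shGFP cells, with no overlap. The change was -0.49 ± 0.107 (SE; limma adjusted p = 0.022), a modest fall, and its call was lost without shGFP replicate 1, 2 or 3 (adjusted p = 0.0596, 0.0687 and 0.0748). The ATAD3A probe set is of a type (x_at) whose probes may also bind related transcripts, such as that of the paralog ATAD3B, whose brightest probe set changed by -0.30 (limma adjusted p = 0.0177). ATAD3C lay in the low mode, with a change of -0.025 (adjusted p = 0.766). All 6 markers of the cell line (VIM, CD44, CAV1, MSN, AXL and EGFR) lay above the low mode in both groups, with VIM at 15.2 in shATAD3A cells and 15.1 in shGFP cells and CD44 at 14.4 and 14.8 in the same order. Of these 6, CD44, CAV1, MSN and AXL were called lower in shATAD3A cells, with changes of -0.34, -0.25, -0.45 and -0.26 (limma adjusted p between 0.000789 and 0.0254), while VIM and EGFR were not called. ESR1, PGR and FOXA1 lay in the low mode, as did the leukocyte, erythroid and hepatocyte markers PTPRC, HBB and ALB. The luminal marker EPCAM stood at 11.2 in shATAD3A cells and 9.21 in shGFP cells, ERBB2 at 8.31 and 7.80, and the endothelial marker PECAM1 at 5.30 and 6.57. Of these, limma called EPCAM and ERBB2 higher and PECAM1 lower. The part of such shifts in the results below was not tested. In bulk RNA, fewer cells that express a gene and less RNA per cell cannot be told apart.

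Of the 10 genes, 5 were called higher in shATAD3A cells (OMA1, MFN2, DNM1L, MIEF1 and MFF), 1 was called lower (MIEF2), and 4 were not called (MFN1, OPA1, FIS1 and YME1L1). That is close to the background: 58.3% of the 10130 genes above the low mode were called, 34.3% higher and 24.0% lower. Of all 19775 genes, dim ones included, 31.3% were called, 18.4% higher and 13.0% lower. The number called higher was 4 without shATAD3A replicate 1 or shGFP replicate 1 and 3 without shATAD3A replicate 3, shGFP replicate 2 or shGFP replicate 3, and the number called lower was 0 without shATAD3A replicate 1, shGFP replicate 1 or shGFP replicate 2. The groups did not overlap for 8 of the 10 genes, where 72.0% of genes above the low mode and 42.0% of all genes did not overlap. Over probe sets, 10 of 44 were called higher and 2 lower, where 22.4% of all probe sets were called, 12.0% higher and 10.5% lower, and 20 of 44 did not overlap, where 33.2% of all probe sets did not. Of these 44, 16 are low-mode probe sets given to YME1L1, and whether they read that gene was not tested. Above the low mode 8 of 23 were called higher and 2 lower, where 52.6% of such probe sets were called, 28.4% higher and 24.3% lower, and 16 of 23 did not overlap, where 67.4% did not. The 2 called in the low mode were probe sets of MFN1 and MFN2. The 2 probe sets called lower became 3 without shATAD3A replicate 2, 1 without shATAD3A replicate 3 or shGFP replicate 3, and 0 without shATAD3A replicate 1, shGFP replicate 1 or shGFP replicate 2. No change reached 2-fold, where 984 of the 10130 genes above the low mode reached it. The median absolute change of the 10 genes was 0.26, against 0.30 over all genes above the low mode. Their median signed change was 0.16, against 0.065 over the same genes. The plot of values by array shows each gene.

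**Figure D1:**
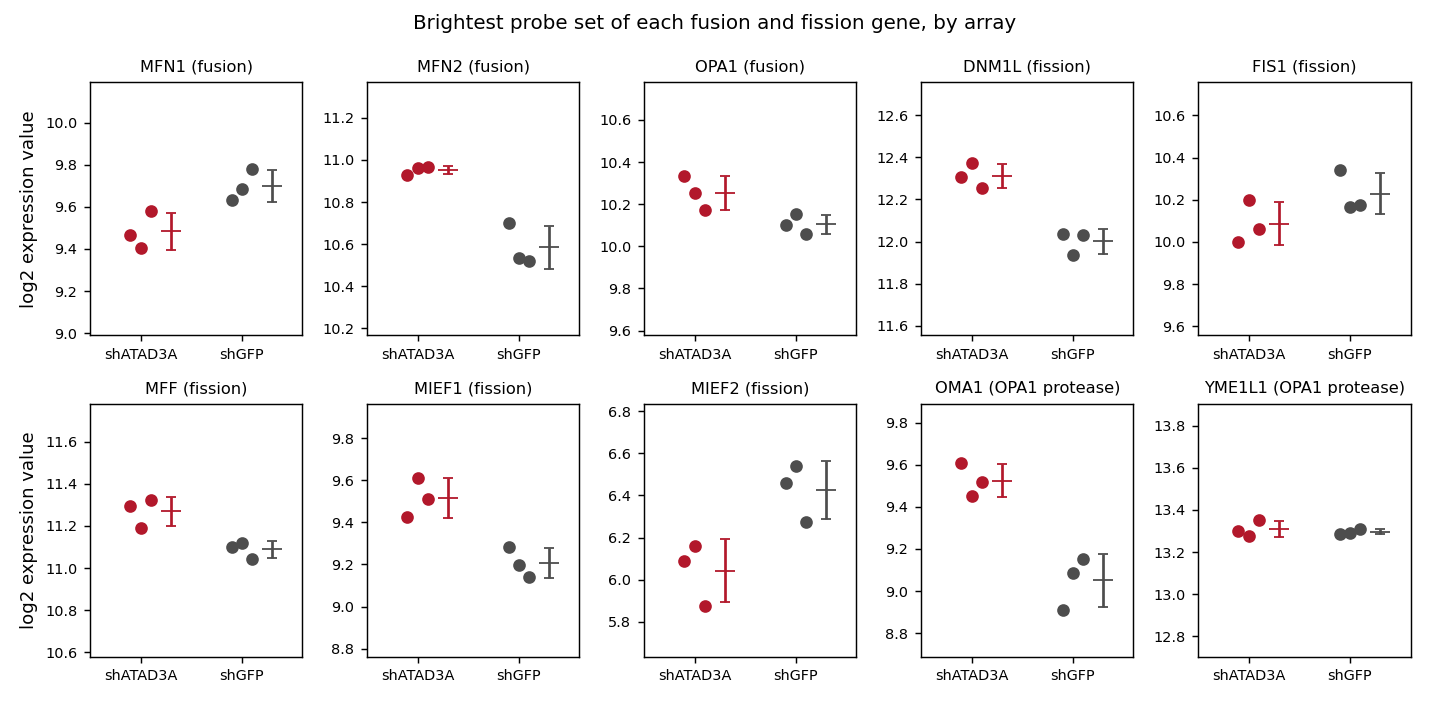
Log2 expression value of the brightest probe set of each gene on the 3 shATAD3A arrays (red) and the 3 shGFP arrays (grey), with the mean and SD beside the points; every panel spans the same 1.2 log2 units. OMA1, MFN2, DNM1L, MIEF1 and MFF sit higher on all shATAD3A arrays, as does OPA1, which was not called; MIEF2 and MFN1 sit lower, and YME1L1 and FIS1 overlap.

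Promoter windows of 5 genes are shown because these are the 4 largest called increases and the 1 called decrease. RefSeq windows from 250 bases before to 50 after each start (GRCh38.p14) were found for 9 of the 10 genes. Capitals mark TGCGCA, the repeated core of the motif of NRF1, a nuclear activator of many mitochondrial genes, and CCGGAAG, a motif of ETS factors, each searched on both strands. The windows are OMA1 at chr1:58546677-58546976 (minus strand), MFN2 at chr1:11980194-11980493, DNM1L at chr12:32679051-32679350, MIEF1 at chr22:39502040-39502339 and the downstream of the MIEF2 windows at chr17:18260860-18261159, the last 4 on the plus strand. The upstream MIEF2 window, at chr17:18260412-18260711, holds neither capitalised motif and is not shown.
OMA1: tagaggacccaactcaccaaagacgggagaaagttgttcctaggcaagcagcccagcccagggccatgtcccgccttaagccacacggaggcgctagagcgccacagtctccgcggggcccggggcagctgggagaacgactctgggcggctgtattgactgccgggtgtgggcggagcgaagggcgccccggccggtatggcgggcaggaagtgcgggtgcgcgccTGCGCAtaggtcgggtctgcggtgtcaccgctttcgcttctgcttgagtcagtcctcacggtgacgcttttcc
MFN2: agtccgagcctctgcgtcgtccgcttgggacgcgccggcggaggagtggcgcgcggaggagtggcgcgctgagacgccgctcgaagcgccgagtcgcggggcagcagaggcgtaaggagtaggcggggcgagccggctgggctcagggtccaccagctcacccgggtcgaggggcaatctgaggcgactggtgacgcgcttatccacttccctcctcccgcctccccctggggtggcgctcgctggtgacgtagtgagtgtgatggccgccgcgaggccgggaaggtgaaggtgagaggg
DNM1L: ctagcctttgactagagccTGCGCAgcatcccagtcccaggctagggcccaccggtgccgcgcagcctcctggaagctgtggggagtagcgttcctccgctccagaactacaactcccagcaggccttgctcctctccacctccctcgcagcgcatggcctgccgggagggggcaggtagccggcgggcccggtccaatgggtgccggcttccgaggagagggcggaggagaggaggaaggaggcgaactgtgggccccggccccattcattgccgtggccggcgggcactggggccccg
MIEF1: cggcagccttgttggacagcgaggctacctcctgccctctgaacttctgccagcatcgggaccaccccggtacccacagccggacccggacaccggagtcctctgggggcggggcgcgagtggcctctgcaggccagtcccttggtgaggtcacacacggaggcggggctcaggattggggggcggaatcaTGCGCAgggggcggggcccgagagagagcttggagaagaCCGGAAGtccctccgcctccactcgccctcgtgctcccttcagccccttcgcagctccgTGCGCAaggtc
MIEF2: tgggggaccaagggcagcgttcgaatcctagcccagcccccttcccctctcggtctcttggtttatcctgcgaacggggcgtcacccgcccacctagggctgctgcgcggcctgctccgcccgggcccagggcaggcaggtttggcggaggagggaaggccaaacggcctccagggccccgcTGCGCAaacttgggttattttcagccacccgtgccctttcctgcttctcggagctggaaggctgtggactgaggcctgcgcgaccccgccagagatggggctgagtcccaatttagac

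TGCGCA lay in a window of 7 of the 9 genes, namely OMA1, DNM1L, MIEF1, MFF, MIEF2, OPA1 and FIS1. It lay in 9.76% of all genes with a window and in 17.0% of those above the low mode on these arrays. By window, it lay in 7 of 12, against 8.24% of all windows. The upstream MIEF2 window and the downstream MFF windows did not hold TGCGCA. Called and uncalled genes were on both sides: MFN2, which rose, did not hold it, while FIS1 and OPA1, which were not called, did. CCGGAAG lay in 3 of the 9 (MFN1, FIS1 and MIEF1), against 24.1% of genes above the low mode. GGGCGG, the motif of SP and KLF factors, lay in 8 of 9, against 78.3%, and TGACG, part of the cAMP response element, in 6 of 9, against 41.9%. AAGATGG of YY1 and AAGGTCA of the oestrogen-related receptors lay in 0 of the 9, against 10.1% and 3.52%. A letter match is a description and no binding site.

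Among the fusion genes, the brightest probe sets of the mitofusins differed in direction, but only MFN2 was called. MFN2, which also tethers mitochondria to the endoplasmic reticulum, read 10.93, 10.96 and 10.97 in shATAD3A cells, against 10.70, 10.53 and 10.52 in shGFP cells. All shATAD3A arrays lay above all shGFP arrays, and the spread was mostly in the control. Its change was 0.37 ± 0.055 (SE; limma adjusted p = 0.0049), or 29.0% higher. A second MFN2 probe set, in the low mode at 4.79 in shATAD3A cells and 4.39 in shGFP cells, gave 0.40 (adjusted p = 0.00273). The third, in the low mode at 2.34 in both groups, was not called.

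MFN1, the partner of MFN2 with the stronger tethering activity, read 9.46, 9.41 and 9.58 in shATAD3A cells, against 9.63, 9.68 and 9.78 in shGFP cells. The shATAD3A arrays were all lower, but the change of -0.22 ± 0.060 (SE) missed the threshold (limma adjusted p = 0.0545). It passed in 8 of 19 other settings, among them without shATAD3A replicate 3 (adjusted p = 0.0331) and after quantile normalization (adjusted p = 0.0391). The MFN1 probe set 217043_s_at gave -0.044 (adjusted p = 0.497) with overlapping groups, and an x_at probe set in the low mode was called higher, by 0.13 (adjusted p = 0.0229), a call lost without shATAD3A replicate 3 or any 1 shGFP array. The 3 MFN1 probe sets therefore give no common direction, although the 2 above the low mode both read lower, without a call.

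OPA1 gave opposite directions on its probe sets above the low mode. The brightest, 212213_x_at, read 10.33, 10.25 and 10.17 in shATAD3A cells, against 10.10, 10.15 and 10.06 in shGFP cells, a change of 0.15 ± 0.049 (SE) that was not called (limma adjusted p = 0.101). Probe set 214306_at gave 0.20 (adjusted p = 0.133). Probe set 212214_at was called lower: 8.53, 8.72 and 8.53 in shATAD3A cells, against 9.05, 8.87 and 8.85 in shGFP cells, a change of -0.33 ± 0.080 (SE; limma adjusted p = 0.0335). On each of the 3 the groups did not overlap, where 67.4% of probe sets above the low mode did not. On 212213_x_at the gap was narrow, from 10.15 in shGFP cells to 10.17 in shATAD3A cells. OPA1 messages are spliced into several forms, and which transcripts each probe set reads was not analysed here. The array-wise difference of 212214_at minus 214306_at was -0.37, -0.17 and -0.42 in shATAD3A cells, against 0.23, 0.31 and 0.077 in shGFP cells, a contrast picked after its values were seen. The call on 212214_at was lost without shATAD3A replicate 1 or 3 and without shGFP replicate 1, 2 or 3 (adjusted p between 0.0552 and 0.112), and when each array was centred on its median (adjusted p = 0.0874).

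**Figure D2:**
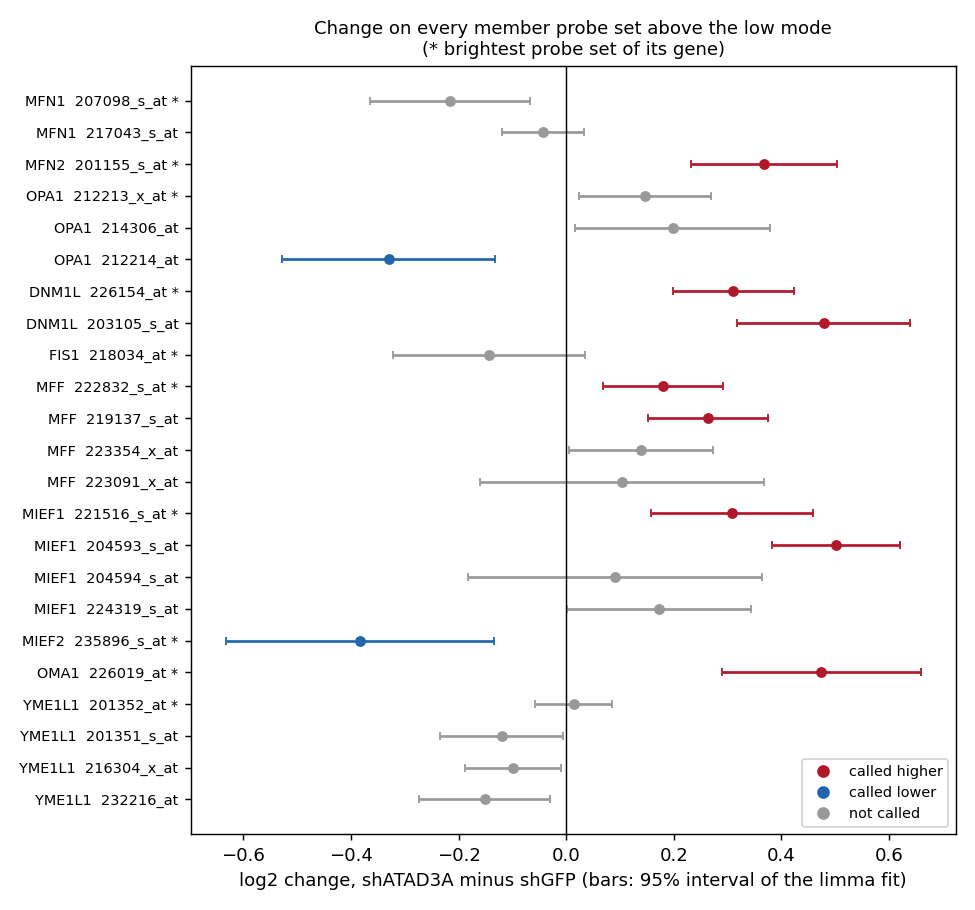
Log2 change (shATAD3A minus shGFP) of the 23 member probe sets above the low mode, with the 95% interval of the limma fit; red, called higher; blue, called lower; grey, not called; an asterisk marks the brightest probe set of a gene. The 3 OPA1 probe sets fall on either side of 0, while all probe sets of DNM1L, MFF and MIEF1 lie to the right of 0.

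The fission GTPase rose on both of its probe sets above the low mode. DNM1L read 12.31, 12.37 and 12.26 in shATAD3A cells, against 12.04, 11.93 and 12.03 in shGFP cells. These groups were well apart, and the change was 0.31 ± 0.045 (SE; limma adjusted p = 0.00459), or 24.0% higher. The other, 203105_s_at, gave 9.95, 9.96 and 10.12 in shATAD3A cells, against 9.55, 9.44 and 9.60 in shGFP cells, a change of 0.48 ± 0.065 (SE; adjusted p = 0.0034). The third DNM1L probe set lay in the low mode and was not called.

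Genes of the DNM1L receptors did not move as a block. MFF, the main receptor for constitutive fission, read 11.29, 11.19 and 11.32 in shATAD3A cells, against 11.10, 11.12 and 11.04 in shGFP cells. The groups did not overlap and the change was small, 0.18 ± 0.045 (SE; limma adjusted p = 0.0367), a call lost without shATAD3A replicate 1 or 3 and without shGFP replicate 1, 2 or 3 (adjusted p between 0.0732 and 0.121) and after quantile normalization (adjusted p = 0.0572). Probe set 219137_s_at of MFF rose by 0.26 (adjusted p = 0.00872), and its 2 x_at probe sets gave 0.14 and 0.10 without a call.

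FIS1, a tail-anchored adaptor with a more minor part in mammalian fission, has 1 probe set. It read 10.00, 10.20 and 10.06 in shATAD3A cells, against 10.34, 10.17 and 10.18 in shGFP cells, with overlap. The change of -0.14 had a 95% interval from -0.32 to 0.036 and was not called (limma adjusted p = 0.287). Without shGFP replicate 1 it was -0.086.

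MIEF1 (MiD51) and MIEF2 (MiD49) are paralogous outer membrane receptors that gather DNM1L, and they changed in opposite directions. MIEF1 read 9.42, 9.61 and 9.51 in shATAD3A cells, against 9.28, 9.20 and 9.14 in shGFP cells, a change of 0.31 ± 0.061 (SE; limma adjusted p = 0.0153). That call was lost without shATAD3A replicate 3 and without shGFP replicate 2 or 3 (adjusted p = 0.0531, 0.054 and 0.0536), and when each array was centred on its median (adjusted p = 0.0521). Another MIEF1 probe set, 204593_s_at, had the smallest p of all 44, at 9.09, 9.07 and 9.19 in shATAD3A cells, against 8.55, 8.62 and 8.68 in shGFP cells, a change of 0.50 ± 0.048 (SE; adjusted p = 0.000862). The other 2 MIEF1 probe sets gave 0.091 and 0.17 and were not called.

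MIEF2 has 1 probe set. It read 6.09, 6.16 and 5.87 in shATAD3A cells, against 6.46, 6.54 and 6.28 in shGFP cells, and so fell by 0.38 on the log2 scale (SE 0.101; limma adjusted p = 0.0446), a change of -23.3%. The groups did not overlap, although the gap between the lowest shGFP array and the highest shATAD3A array was small beside the spread within groups. The call was lost without shATAD3A replicate 1 or 3 and without shGFP replicate 1 or 2 (adjusted p between 0.0903 and 0.131), and when each array was centred on its median (adjusted p = 0.0698).

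Of the OPA1-cutting proteases, OMA1 had the largest change of the 10 genes by brightest probe set. It read 9.61, 9.45 and 9.52 in shATAD3A cells, against 8.91, 9.09 and 9.15 in shGFP cells, with a clear gap between the groups. The change was 0.47 ± 0.075 (SE; limma adjusted p = 0.00626), or 38.9% higher, and 67.7% of genes above the low mode had a smaller absolute change. A probe set that the annotation gives to OMA1 and DAB1 together, and which is therefore no member, rose by 0.67 (adjusted p = 0.000753).

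YME1L1, an AAA protease of the inner membrane, showed no called change. It read 13.30, 13.28 and 13.35 in shATAD3A cells, against 13.29, 13.29 and 13.31 in shGFP cells. The change was 0.014, with a 95% interval from -0.057 to 0.085 (limma adjusted p = 0.887). Of the 20 probe sets that the annotation gives to YME1L1, limma called 0, and 4 had an unadjusted p under 0.05. Over all 54613 probe sets, 22.4% were called and 16147 had such a p. The other 3 above the low mode gave -0.12, -0.098 and -0.15, against 0.014 on the brightest. The remaining 16 lay in the low mode, and whether they read YME1L1 was not tested.

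Related pairs, 4 in all, were compared on each array, as the difference of the brightest probe sets in log2 units, with an exact two-sided permutation test over the 6 arrays. MFN1 minus MFN2 was -1.47, -1.56 and -1.39 in shATAD3A cells, against -1.07, -0.85 and -0.74 in shGFP cells, a shift of -0.58. MIEF1 minus MIEF2 shifted by 0.69, OMA1 minus YME1L1 by 0.46 and MFF minus FIS1 by 0.32. In all 4 pairs the groups did not overlap, which gave an exact permutation p = 0.1, the smallest that 3 arrays against 3 allow, and 0.1 after adjustment over the 4 pairs. This design therefore cannot pass 0.05. Among single genes above the low mode 72.0% did not overlap and no such share was computed for gene pairs, so nothing is read from the 4 of 4. For MFF minus FIS1 the groups were close, with the lowest shATAD3A array at 0.99 and the highest shGFP array at 0.95. Each shift kept its sign with every other choice of probe sets above the low mode, from -0.41 for the mitofusins to 0.89 for the MIEF pair. Unequal change within a pair was not shown by this test, and no level of a gene can be set against another from these probe sets.

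**Figure D3:**
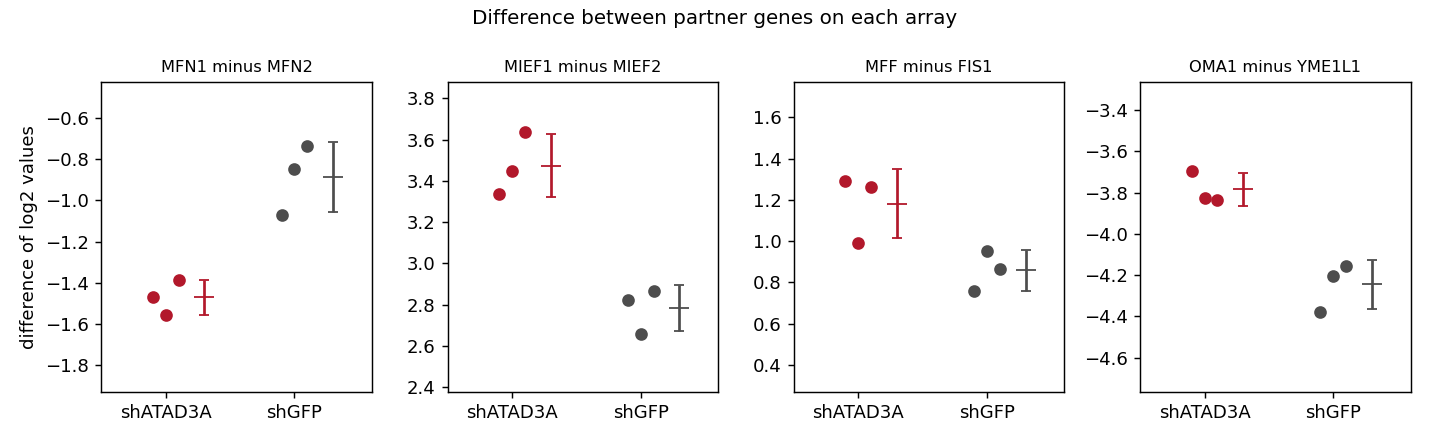
Difference of log2 values between the brightest probe sets of 4 related gene pairs on each array, shATAD3A (red) left of shGFP (grey), with mean and SD; every panel spans the same 1.5 log2 units. The groups do not overlap in any pair, and the MIEF1 and MIEF2 pair shifts most, by 0.69.

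The chromosomal surroundings of some members shifted in the same direction. Among genes above the low mode, the median change of the 25 genes on either side was 0.47 around DNM1L and 0.35 around MFF, larger than the changes of DNM1L (0.31) and MFF (0.18) themselves. It was 0.19 around MFN2, 0.15 around OMA1, 0.10 around MFN1 and between -0.063 and 0.088 around OPA1, FIS1, MIEF1, MIEF2 and YME1L1. With this median subtracted, a setting added after seeing the data that treats it as free of error, DNM1L read -0.16 (adjusted p = 0.0252) and MFF -0.17 (adjusted p = 0.0197), both reversed. MFN2 read 0.18 (adjusted p = 0.0317), OMA1 0.32 (adjusted p = 0.0114), MIEF1 0.23 (adjusted p = 0.019) and MIEF2 -0.45 (adjusted p = 0.0103), and MFN1 was then called lower, at -0.32 (adjusted p = 0.00537). DNA copy number was not analysed here, and its part in these changes was not tested. With all 50 neighbours taken whatever their level, the medians lay between -0.019 and 0.020.

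The genes whose array profile lay closest to OMA1 and MIEF2, the members with the largest called increase and decrease, were found by Euclidean distance over the 6 arrays after centring each gene. For OMA1 they were PLEKHA1 (distance 0.0994), DENND4C (0.106) and TMEM87B (0.108), which rose by 0.46, 0.46 and 0.40. For MIEF2 they were SHROOM3 (0.137), CDKN2D (0.157) and HRH1 (0.18), with changes of -0.36, -0.50 and -0.39. Such closeness was common, since 719 genes lay within 0.3 of OMA1 and 313 within 0.3 of MIEF2.

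Around the core machinery, 74 of 78 listed companion genes were analysed by their brightest probe set. Of these 16 were called higher and 21 lower, or 50% in all, against 31.3% of all genes, and their median change was -0.013. The low mode held 6 of the companions, none of them called. Of the 68 above it 54.4% were called, against 58.3% of genes above the low mode. By direction, 34.3% of genes above the low mode were called higher and 24.0% lower, and 18.4% and 13.0% of all genes. Of 11 other fission factors, limma called 5 higher and 0 lower, and 6 had an unadjusted p under 0.05 in either direction. Over genes above the low mode, 7138 of 10130 had such a p. The number called lower was 1 with the median of all neighbouring genes subtracted and 2 with that of neighbours above the low mode. INF2, a formin that builds actin at division sites, stood at 8.90 ± 0.11 in shATAD3A cells and 7.93 ± 0.11 in shGFP cells (SD, n = 3; limma adjusted p = 0.000503), and GDAP1, an outer membrane protein mutated in neuropathy, rose by 0.43 (adjusted p = 0.01). Of 9 other fusion factors, 4 were higher and 1 lower. PHB2, the inner membrane prohibitin that stabilises long OPA1, stood at 13.2 ± 0.056 in shATAD3A cells and 12.3 ± 0.049 in shGFP cells (SD, n = 3; limma adjusted p = 8.05e-05). STOML2, which scaffolds the inner membrane, rose by 0.55, and the phosphatidate phosphatase LPIN1 changed by -0.90.

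Of 21 kinases, phosphatases and SUMO or ubiquitin enzymes that act on DNM1L, MFF or the mitofusins, 2 were called higher and 8 lower, where 34.3% and 24.0% of genes above the low mode were. The number called lower was 5 without shGFP replicate 2 or 3, and 4 were called higher without shGFP replicate 1. The phosphatase PGAM5 stood at 7.54 ± 0.14 in shATAD3A cells and 5.97 ± 0.14 in shGFP cells (SD, n = 3; limma adjusted p = 0.000168), an increase of 1.58. PRKAA2, a catalytic subunit of AMPK, which phosphorylates MFF, rose by 0.50. PRKAA1, the other AMPK catalytic subunit in the list, was called lower, by -0.66 (limma adjusted p = 0.0163), so the subunits give no common direction. PPP3CC, a catalytic subunit of calcineurin, which frees DNM1L for fission, changed by -0.83 from 7.64 in shGFP cells. The calcineurin catalytic genes PPP3CA and PPP3CB were brighter, at 12.1 and 11.1 in shGFP cells, and changed less, by -0.11 and -0.22. PRKACA, the catalytic subunit of protein kinase A, which holds DNM1L back, changed by -0.72. Of 8 other inner membrane proteases and members of the OMA1 stress relay, 2 rose and 2 fell. The rhomboid protease PARL rose by 0.56 and HTRA2 by 0.26. EIF2AK1 (HRI), the kinase that OMA1 activity reaches through DELE1, stood at 9.76 ± 0.17 in shATAD3A cells and 10.4 ± 0.074 in shGFP cells (SD, n = 3; limma adjusted p = 0.00452), and AFG3L2 changed by -0.24.

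Of 11 genes for mitochondrial movement, 1 was called higher and 5 lower, where 34.3% and 24.0% of genes above the low mode were. ARMCX1 and ARMCX3, outer membrane proteins that link to the transport machinery, changed by -1.90 (limma adjusted p = 4.085e-06) and -1.35, and the medians of the genes around them were -0.93 and -0.91. CLUH, which binds messages of mitochondrial proteins, rose by 0.92. Of 14 mitophagy receptors and adaptors, 2 rose and 5 fell. BNIP3L (NIX), a hypoxia-induced mitophagy receptor, stood at 11.4 ± 0.14 in shATAD3A cells and 13.5 ± 0.072 in shGFP cells (SD, n = 3; limma adjusted p = 3.328e-05), a change of -2.07, and NIPSNAP2 changed by -1.35. The adaptor SQSTM1 (p62) rose by 0.65. BCL2L13, an outer membrane receptor, rose by 0.58 (limma adjusted p = 0.0436), and 1 in place of 2 genes of the list was called higher without shATAD3A replicate 1, 2 or 3 or shGFP replicate 3. In the list on movement 2 were called higher without shATAD3A replicate 2. The medians of the neighbouring genes above the low mode were also away from 0 around PHB2 (0.52), PGAM5 (0.43), CLUH (0.42), PRKACA (-0.50), PPP3CC (-0.47) and AFG3L2 (-0.36). They were 0.30 around BCL2L13, 0.26 around INF2, -0.24 around EIF2AK1, -0.20 around BNIP3L and 0.25 around PRKAA1, which itself fell. Around the remaining named companions they lay between -0.11 (NIPSNAP2) and 0.17 (HTRA2). The part of these medians in the changes was not tested. For AFG3L2 that median is beyond its own change of -0.24, so its direction turns when the median is subtracted. With the median of neighbours above the low mode subtracted, a setting added after seeing the data, 3 genes of the protease and OMA1 relay list were called higher and 1 lower, and 8 mitophagy genes in place of 5 were called lower. With the median of all neighbours subtracted, 2 movement genes in place of 1 were called higher. Of the 74 companions, 5 changed by 2-fold or more, and of the 10 fusion and fission genes 0. Over genes above the low mode 984 of 10130 did, and over all genes 1155 of 19775, so nothing is read from this contrast.

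**Figure D4:**
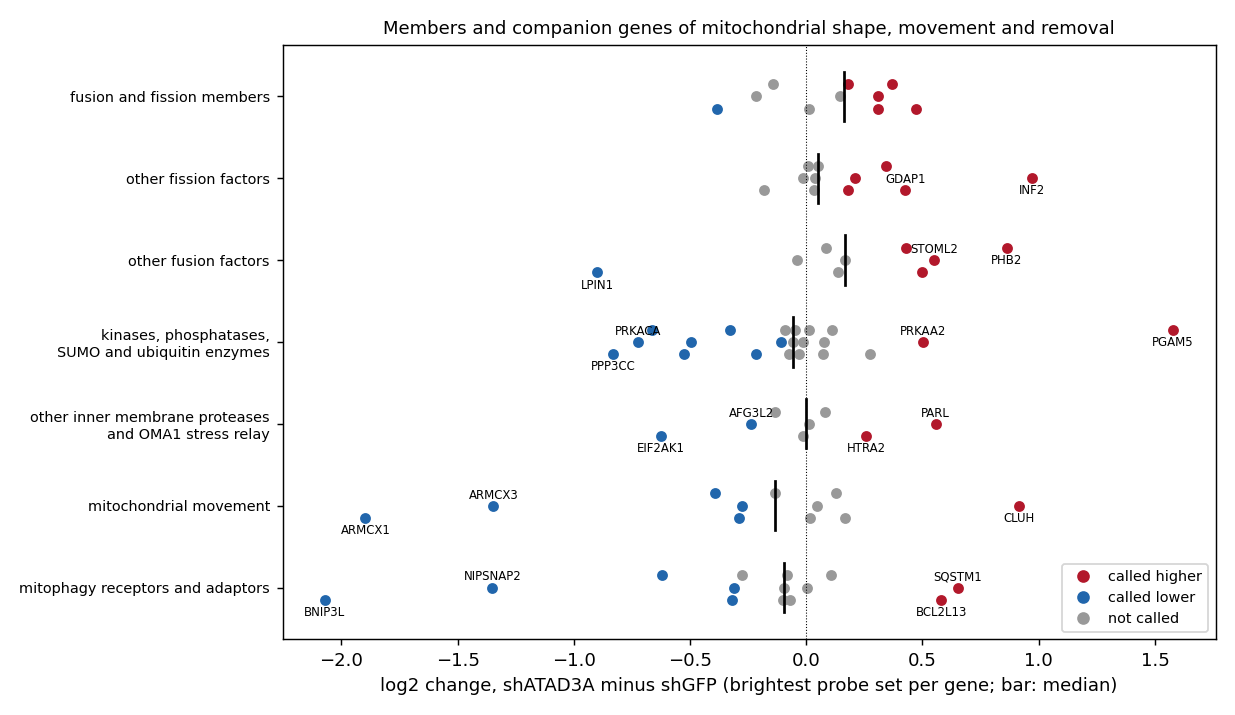
Log2 change (shATAD3A minus shGFP) of the 10 members and of the 74 companion genes by list, 1 point per gene from its brightest probe set; red, called higher; blue, called lower; grey, not called; the bar is the list's median. The members lie between -0.38 and 0.47, within the wider range of the companions, which runs from BNIP3L at -2.07 to PGAM5 at 1.58.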

How the data were processed

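Biotin-labelled RNA made from 250 ng of total RNA was, per the labels' protocols, put on 6 arrays of the Affymetrix U133 Plus 2.0 design. The deposited values are taken as log2 expression values from their range (0.826 to 16.6, array medians 3.16 to 3.23). The sources used here do not state how probes were summarised and normalized. Partek appears, with no version, per the submitters' processing notes. Of 54675 probe sets, 62 controls were set aside, and the 2016 platform annotation gives 1 symbol to 41091, several to 1801 and none to 11721. Symbols were checked through gene IDs against the GRCh38.p14 table, which changed 0 of them. Columns not matched to a sample numbered 0, and at most 0.0165% of values were identical between 2 arrays.

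All 54613 probe sets were fitted in R 4.3.3 with lmFit and eBayes of limma 3.58.1, two-sided, with group alone in the model, dim probe sets kept and Benjamini-Hochberg adjustment, after a test of the fit on simulated data. Arrays correlated at 0.9986 to 0.9991 within groups and 0.9890 to 0.9898 between them. Named genes were the 10 members with all their probe sets, ATAD3A and its paralogs, marker genes, the 3 nearest profiles of 2 members, and from each companion list the 2 largest called increases and decreases. PRKAA1, PPP3CA and PPP3CB are named as well, as relatives of named companions. Alternatives covered normalization, filters, which probe sets stand for a gene, array weights, the prior on the variance, thresholds, neighbouring genes, the replicate block and leaving out each array. The members and lists were chosen with earlier results of these data known. For 4 listed companion genes no value was used here.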

Additional observations from a re-analysis of the deposited data

How the results depend on the processing

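Every member by its brightest probe set kept its direction when any 1 array was left out, except YME1L1, whose change ranged from -0.0066 to 0.0298. OMA1, MFN2 and DNM1L also kept their calls in those 6 settings. ATAD3A stayed lower, from -0.56 to -0.37 with 1 array left out, at -0.49 by treat against a 1.2-fold change (adjusted p = 0.254) and at -0.49 with a threshold of 0.01, both without a call. Member genes called higher numbered 3 to 5 and called lower 0 to 1 with 1 array left out, and member probe sets 7 to 10 and 0 to 3.

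Member genes called higher, 5 as reported, numbered 2 without s_at and x_at probe sets. In that setting MFN1, MFF, MIEF1 and MIEF2 had no probe set left and were not tested, and MFN2 was read from the low mode. The number called higher was 3 with the replicate block, 3 at a threshold of 0.01 and 0 by treat. It was 3 with the median of neighbouring genes above the low mode subtracted, a setting chosen after seeing the data. Member genes called lower, 1 as reported, numbered 2 after quantile normalization, without dim probe sets, with 1 probe set per gene, with the replicate block and with the median of all neighbours subtracted. They numbered 4 with the median of neighbours above the low mode subtracted, and 0 by treat and at 0.01. The number was also 0 without s_at and x_at probe sets, where MIEF2, the 1 gene called lower, could not be tested. Member probe sets called higher, 10 as reported, numbered 2 without s_at and x_at probe sets and 1 by treat. Those called lower, 2 as reported, numbered 6 after quantile normalization, 1 with arrays centred on their medians, 1 without s_at and x_at probe sets, 0 by treat and 0 at 0.01. Companion genes called higher, 16 as reported, numbered 9 without s_at and x_at probe sets and 8 by treat, and 12 in place of 21 were called lower by treat. Beyond fewer probe sets and stricter thresholds, the cause was not tested.

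With all probe sets of a gene averaged, OPA1 read -0.058 and YME1L1 -0.025, and with neighbours above the low mode subtracted, DNM1L read -0.16 and MFF -0.17, all reversed. The 4 pair differences kept their sign in every setting run, and within replicate numbers, which form the replicate block, their exact p was 0.25, the smallest 3 pairs allow. Same-numbered arrays did not deviate together (correlations -0.257, -0.163 and 0.0495 over probe sets above the low mode), and not every array correlated best with its own number. The largest correlations were 0.247 for shATAD3A replicate 2 with shGFP replicate 1, and 0.216 for shATAD3A replicate 1 with shGFP replicate 2. Whether arrays of unlike number shared a processing step was not tested, and the replicate block would not capture it. Counts of member probe sets cannot be given for fits with 1 value per gene.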
